A study of Mus musculus with 2 samples.

Results

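Prostaglandin signalling was represented on the arrays by 8 genes, Ptgs1, Ptgs2, Ptges, Ptgis, Ptger1, Ptger2, Ptger4 and Ptgfr, which code for cyclooxygenases, terminal synthases and prostaglandin receptors. They were taken as every probe, other than control probes, whose gene name in the scanner files was one of these symbols. This gave 9 of 39429 probes and 8 of 28312 genes, with 2 probes for Ptges and 1 for each of the other genes. Total RNA came from immortalized murine embryonic fibroblasts that carry a Cre recombinase fused to ERT2 at the Rosa26 locus and loxP sites in both copies of THOC5 (flox/flox), on a background labelled C57BL/6 x B6:129 Ola. THOC5 is a component of the THO complex, which acts in the processing and export of mRNA. Control cells, labelled wildtype, received no tamoxifen, and THOC5-depleted cells, labelled THOC5 knockdown, are the same cell line after tamoxifen (2 days in the labels; 10 μM for 24 h and then growth medium for 24 h in the methods). Both were serum-starved for 24 h, and RNA was taken before and after 1 h with 20% serum. Each condition was measured on 1 two-color array, with unstimulated RNA in Cy3 and serum-stimulated RNA in Cy5, so every value below is a single measurement without a biological replicate and no test between conditions was made. Loss of THOC5 and exposure to tamoxifen cannot be told apart in this design, nor can the effect of serum and that of the dye, because the dyes were the same way round on both arrays.

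Prostaglandins are lipid mediators made from arachidonic acid, which phospholipases release from membranes. The cyclooxygenases PTGS1 and PTGS2 convert it to prostaglandin H2, and terminal synthases turn that intermediate into prostaglandin E2, prostacyclin and other products that act on G protein-coupled receptors at the cell surface. In fibroblasts Ptgs2 is known as an immediate early gene of the serum response, whereas Ptgs1 is usually described as constitutive.

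On each array 62.1% to 64.4% of spots were well above background by the scanner software's own call, and no spot was saturated. The Thoc5 probe gave a signal of 4808 in unstimulated and 3047 in stimulated control cells, and of 546 and 455 in THOC5-depleted cells. After normalization between the arrays, Thoc5 was 7.08-fold lower in unstimulated and 5.38-fold lower in stimulated THOC5-depleted cells; whether the probe lies in the deleted part of the gene was not checked here. All 8 fibroblast markers were well above background in the 4 samples, with a summed signal of 376298 and 338813 in control and 301823 and 266487 in THOC5-depleted cells (unstimulated and stimulated). The median log2 difference of the list between THOC5-depleted and control cells was -0.19 in unstimulated and -0.27 in stimulated cells; it ran in unstimulated cells from -1.28 for Pdgfra and -1.13 for Col3a1 (-0.39 and -0.75 after serum) to 0.25 for Thy1. Of 5 macrophage markers, Itgam (6314 to 8700) and Csf1r (383 to 538) were detected in every sample, while Ptprc, Adgre1 and Cd68 lay between 5.59 and 26.0. Cd68 and Ptprc were well above background only in THOC5-depleted cells, with Cd68 at 11.6 and 11.8 in control and 24.6 and 26.0 in THOC5-depleted cells. The summed signal of that list was 6736 in unstimulated and 8744 in stimulated control cells and 7915 and 9186 in THOC5-depleted cells, most of which came from Itgam. Csf1r differed between the arrays by 0.24 (log2) in unstimulated and -0.06 in stimulated cells, and Adgre1 was well above background in 1 sample of each array. Of the endothelial markers, Kdr (805 to 1015), Pecam1 and Cdh5 were detected in every sample and Tek in none. Cdh5 gave 42.7 and 50.7 in control and 21.7 and 21.1 in THOC5-depleted cells (log2 differences of -0.83 and -1.12). Of the epithelial markers, Krt8 (log2 difference of -0.90 in stimulated cells) and Krt18 were detected in every sample, Epcam in control cells only (32.1 and 32.6) and Cdh1 in none. Of the platelet markers, Itga2b (83.8 to 134) was detected in every sample and Pf4 and Gp9 in none. The part of these differences in the values below, above all those between the arrays, was not tested.

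Serum was followed by higher Ptgs2 and Ptger4 signals in control cells, and for both genes the serum ratio was smaller in THOC5-depleted cells. The other 6 genes stayed within 2-fold of the unstimulated level on both arrays or were too dim to be measured. The plot of signals by sample shows this for each probe. Signals are printed as deposited, without scaling between the arrays, and log2 differences between control and THOC5-depleted cells are given after normalization between them.

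**Figure D1:**
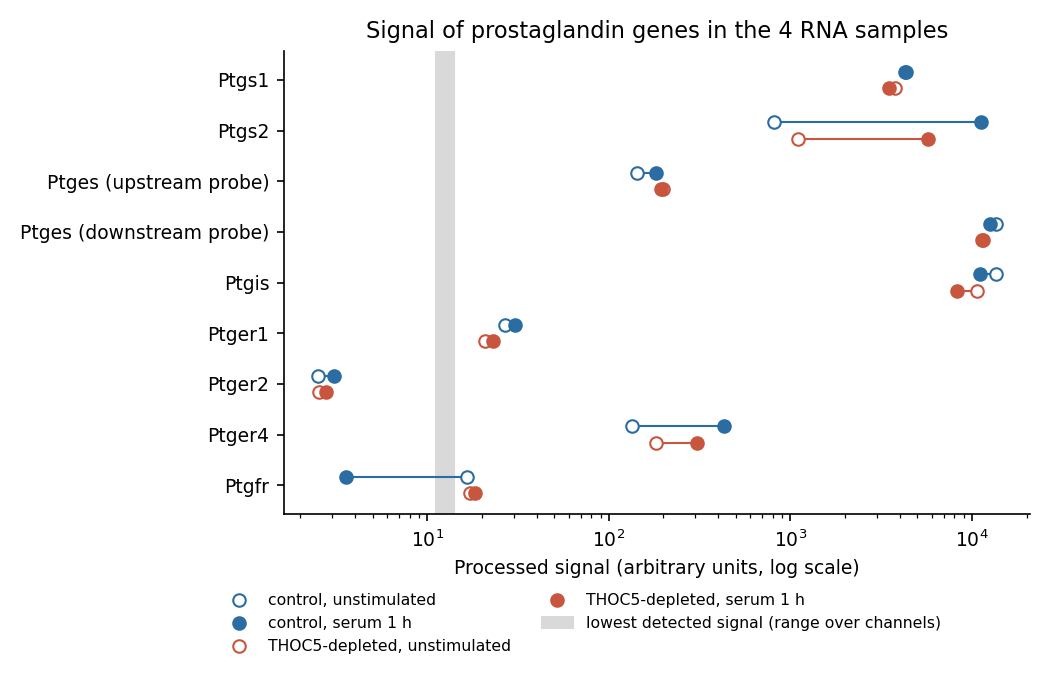
Processed signal (arbitrary units, log axis) of each of the 9 probes in the 4 RNA samples; open circles are unstimulated and filled circles serum-stimulated cells, blue is control and red THOC5-depleted, and the grey band spans the detection limits of the 4 channels (11.2 to 14.0). Each point is 1 measurement (for Ptgs2 the mean of 8 spots); the long lines belong to Ptgs2 and Ptger4, while the line of Ptgfr in control cells ends below the grey band.

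Ptgs2 codes for the inducible cyclooxygenase. Its probe lies on the plus strand at chr1:151954744-151954803 (mm9), 3746 bases into the transcript, and begins with the following bases, shown because the largest serum response among the 8 genes was read here.
Ptgs2 probe, first 30 of 60 bases: tttttgaaaagtttgaagttagaacttagg

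The probe was printed as 10 spots on each array, of which 8 entered the mean after spots marked as outliers were left out. In control cells the mean signal was 813 before and 11222 after serum stimulation. In THOC5-depleted cells it was 1106 before and 5754 after serum. The signal was thus lowest in unstimulated control cells and highest in stimulated control cells, with both THOC5-depleted samples in between. Ptgs2 was upregulated 13.8-fold in control cells (log2 ratio 3.79 ± 0.033, SD between 8 spots of 1 array) and 5.20-fold in THOC5-depleted cells (2.38 ± 0.028). This SD covers technical error within an array only.

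The spots of the 2 arrays did not overlap in any measure, whether or not spots marked as outliers were included. They are technical repeats on 1 array per condition, and the signals were not scaled between the arrays. Their separation therefore reflects the small spread within an array and does not measure a difference between conditions. All 10 spots of the control array ran from 757 to 857 in unstimulated and from 10518 to 11643 in stimulated cells. Those of the THOC5-depleted array ran from 1071 to 1158 and from 5511 to 5951. The log2 serum ratio of single spots was between 3.72 and 3.83 in control cells and between 2.34 and 2.42 in THOC5-depleted cells.

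**Figure D2:**
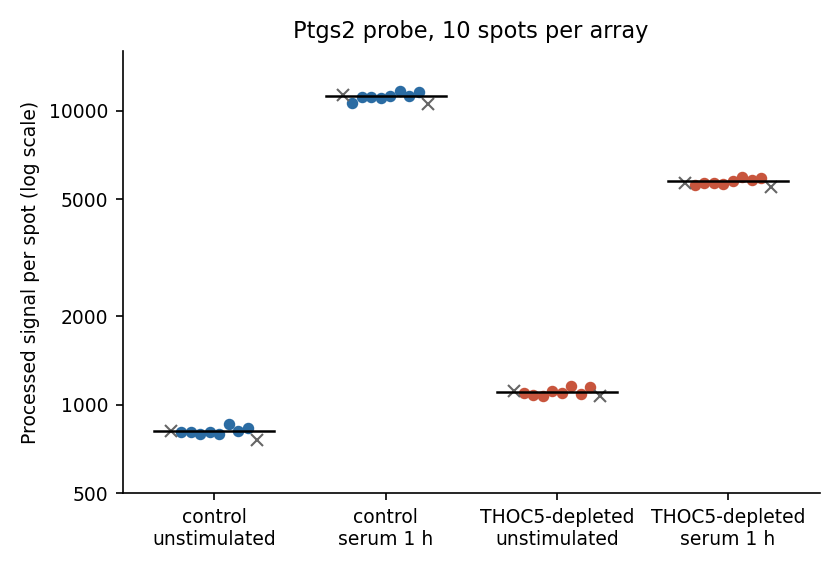
Processed signal (log axis) of the 10 Ptgs2 spots on each array, by RNA sample; circles are spots that entered the mean (black line), and crosses are spots marked as outliers by the software. Spots of a sample lie close together (757 to 857 in unstimulated control cells), and the 4 samples form separate groups. The spots are repeats within an array and the signals are not scaled between the arrays.

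The serum ratio of Ptgs2 was 2.65-fold smaller in THOC5-depleted than in control cells, a difference of -1.41 on the log2 scale. As a measure of the difference between the arrays, the ratios of 10 spike-in probes, which report RNAs added in known amounts, exceeded those of the control array by 0.15 to 0.35 on the array of THOC5-depleted cells, in the opposite direction. The log ratios of all genes were also spread more widely on the control array, with a median absolute deviation of 0.19 against 0.14. When both arrays were scaled to one spread, the difference for Ptgs2 was -0.34. With 1 array per condition, a gene-specific difference and a general difference in the size of the serum response cannot be told apart. Among the 413 genes that were at least 2-fold higher after serum in control cells and detected in all 4 samples, which were selected on the control array, the median log2 ratio was 1.49 in control and 0.66 in THOC5-depleted cells, a median reduction of 1.88-fold.

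Ptger4 codes for the EP4 receptor of prostaglandin E2, which couples to the stimulatory G protein and raises cyclic AMP. Its probe lies on the minus strand at chr15:5184419-5184478 (mm9), 1828 bases into the transcript, and is shown as the site of the second serum response.
Ptger4 probe, first 30 of 60 bases: aagcacattggctgtcattctgatgtgact

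In control cells the Ptger4 signal was 134 before and 430 after serum. In THOC5-depleted cells it was 181 before and 305 after serum. The order of the 4 samples was the same as for Ptgs2. Ptger4 was upregulated 3.21-fold in control cells (log2 ratio 1.68). In THOC5-depleted cells its ratio was 1.68-fold (log2 0.75), short of 2-fold, and 1.91-fold smaller than in control cells (difference -0.93). The probe was printed once per array and has no spread of its own; probes printed as 10 spots with signals from 100 to 1000 varied between spots with a median SD of 0.035 (log2 ratio) in control and 0.039 in THOC5-depleted cells. After scaling to one spread the difference was -0.52.

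Ptgs2 and Ptger4 were the 2 of 7 measurable genes counted as changed at least 2-fold after serum in control cells, against a background of 4.38% of the 18816 genes with at least 1 signal well above background. Ptgfr, among the 7, has only a lower bound in control cells. In THOC5-depleted cells this held for 1 of 7, Ptgs2, against a background of 1.32% of 18569 genes. By the size of the serum ratio, Ptgs2 ranked 15 of 18816 genes in control cells and 17 of 18569 in THOC5-depleted cells. Ptger4 ranked 197 and 347. The serum ratio differed at least 2-fold between the arrays for 1 of the 6 genes measured in all samples, again Ptgs2, against 1.98% of 17231 genes. With log ratios scaled to the same spread, the Ptgs2 difference was -0.34, short of 2-fold. The median log2 ratio of the 6 genes was 0.08 in control and 0.07 in THOC5-depleted cells, beside -0.02 and -0.01 for all genes, so the median did not carry the response of the 2 genes.

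**Figure D3:**
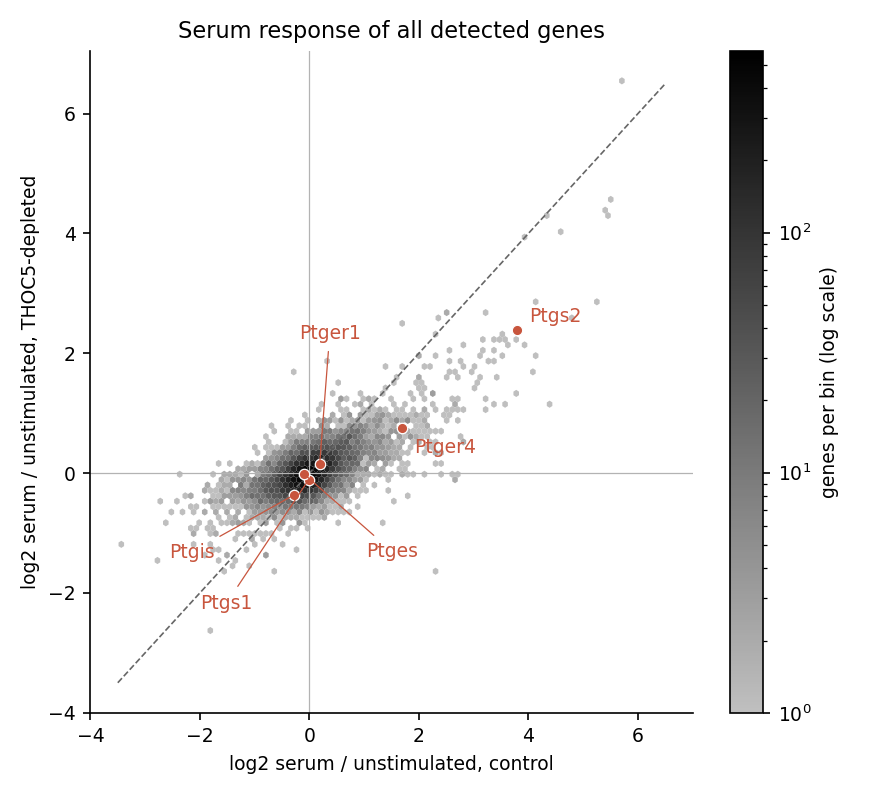
Log2 serum over unstimulated signal in control (x axis) and THOC5-depleted cells (y axis) for the 17231 genes well above background in all 4 samples, as bins shaded by the number of genes; red points are the 6 prostaglandin genes among them and the dashed line marks equal ratios. Ptgs2 (3.79 and 2.38) and Ptger4 (1.68 and 0.75) lie to the right of the dense centre and below the line, and the other 4 genes lie within it.

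Ptgs1 codes for the constitutive cyclooxygenase, and its probe on chromosome 2 (chr2:36107644-36107703, mm9, plus strand) gave nearly the same signal before and after serum. The signal was 4340 and 4290 in control cells and 3760 and 3477 in THOC5-depleted cells. The log2 serum ratios were -0.02 and -0.11, close to the medians of all genes. The 2 cyclooxygenase genes therefore differed in their serum ratio on both arrays, by more than the spread between repeated spots; this compares ratios, since levels of different probes cannot be compared.

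The promoter windows of the responding genes and of Ptgs1 are printed side by side, from RefSeq (GRCm38.p6), as the 250 bases before and the first 30 bases after the annotated start. Capitals mark matches to the motifs searched.
Ptgs2, chr1:150099781-150100060, plus strand: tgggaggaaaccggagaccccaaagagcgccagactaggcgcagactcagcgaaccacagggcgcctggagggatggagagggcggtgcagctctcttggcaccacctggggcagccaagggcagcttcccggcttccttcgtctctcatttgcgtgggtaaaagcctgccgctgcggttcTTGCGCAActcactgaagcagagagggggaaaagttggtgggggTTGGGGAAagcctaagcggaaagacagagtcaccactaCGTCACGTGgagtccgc
Ptger4, chr15:5244158-5244437, minus strand: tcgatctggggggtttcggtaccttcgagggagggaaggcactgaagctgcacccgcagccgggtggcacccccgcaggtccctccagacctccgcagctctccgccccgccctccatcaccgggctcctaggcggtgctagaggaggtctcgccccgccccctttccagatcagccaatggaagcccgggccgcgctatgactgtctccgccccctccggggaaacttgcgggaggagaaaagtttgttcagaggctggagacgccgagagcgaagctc
Ptgs1, chr2:36230176-36230455, plus strand: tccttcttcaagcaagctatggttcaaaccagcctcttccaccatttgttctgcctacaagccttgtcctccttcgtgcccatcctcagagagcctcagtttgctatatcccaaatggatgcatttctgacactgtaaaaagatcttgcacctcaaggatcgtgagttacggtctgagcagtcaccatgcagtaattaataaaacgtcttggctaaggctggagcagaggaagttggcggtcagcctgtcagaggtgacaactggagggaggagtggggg

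Both strands of the full 300-base windows (50 bases after the start) were searched. The TATA box was taken as TATAAA. The half-site of the cAMP response element, to which CREB and ATF proteins bind, was taken as TGACG. An E-box, bound by basic helix-loop-helix proteins, was written as CACGTG. The AP-1 site of Fos and Jun proteins was searched as TGANTCA. For C/EBP proteins the letters were TTNNGNAA. An NF-kB-like motif and the CArG box, the site of serum response factor, were searched as well. A window was at hand for 6 of the 8 genes, all except Ptgis and Ptger1. The Ptgs2 window held a C/EBP-like match at position -69, which reads as a match on both strands, and another at -25. It also held the cAMP response element half-site on the reverse strand at position 14 after the start and an E-box at position 17, which overlap each other. Over 32851 promoters, C/EBP-like matches occurred in 40.7%, the half-site in 20.8% and the E-box in 7.15%. The Ptger4 and Ptgs1 windows held no match to any of the 7 motifs. C/EBP-like matches were present in the windows of Ptger2 (3 matches), Ptgfr (2) and Ptges (1), the first of which was not detected. None of the 6 windows matched the TATA box (13.6% of promoters), the AP-1 site (7.81%), the NF-kB-like motif (1.63%) or the CArG box (1.63%). The G+C content of the window was 59.3% for Ptgs2, 67.0% for Ptger4 and 50.7% for Ptgs1. A match is a run of letters and was not tested as a binding site.

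**Figure D4:**
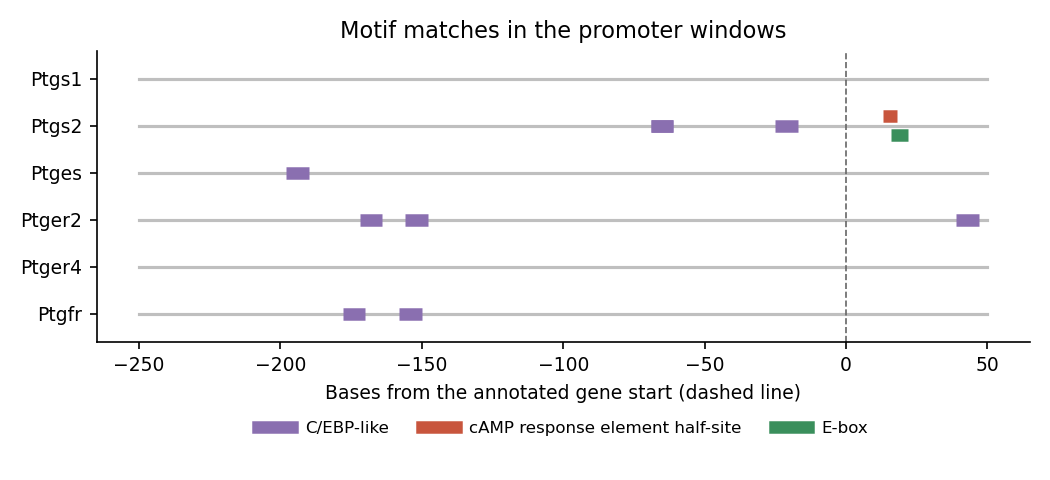
Positions of motif matches in the 6 promoter windows, in bases from the annotated gene start (dashed line at 0); grey lines are the 300-base windows, and matches are drawn to length, with the half-site above and the E-box below the line. Of the 3 genes whose sequences are printed, Ptgs2 alone carried matches, at -69, -25, 14 and 17.

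Ptges codes for the inducible microsomal synthase of prostaglandin E2 and was read by 2 probes on the minus strand of chromosome 2, both assigned to one transcript. They lie 3219 bases apart in the transcript and 3219 bases apart on the chromosome (mm9), so no intron separates them. The sequences are shown because the 2 probes gave different values.
Ptges upstream probe, chr2:30748214-30748273, 60 bases, from base 364 of the transcript: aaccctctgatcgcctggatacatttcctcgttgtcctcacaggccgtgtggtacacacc
Ptges downstream probe, chr2:30744995-30745054, first 30 of 60 bases, from base 3583 of the transcript: atgataaaggactaaacctctgaacctgta

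The downstream probe, the brighter of the pair, gave 13538 before and 12628 after serum in control cells, and 11492 and 11371 in THOC5-depleted cells. Its log2 serum ratios were -0.10 and -0.02. The upstream probe gave 144 and 183 in control cells and 198 and 194 in THOC5-depleted cells. Its lowest value was that of unstimulated control cells, and its log2 serum ratios were 0.35 and -0.03. On neither probe did Ptges change 2-fold after serum, but the probes differed in control cells by more than the spot-to-spot SD at their signals. The mean over both probes was 0.12 in control cells.

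Ptgis codes for prostacyclin synthase. Its probe (chr2:167028696-167028755, mm9, minus strand) gave 13548 before and 11127 after serum in control cells and 10664 and 8268 in THOC5-depleted cells. The signal was lower after serum on both arrays, with log2 ratios of -0.28 and -0.37, short of 2-fold.

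Ptger1, which codes for the EP1 receptor of prostaglandin E2, was dim (chr8:86193943-86194002, mm9, plus strand). The signals were 26.9 and 30.6 in control cells and 20.7 and 23.0 in THOC5-depleted cells, which gave log2 serum ratios of 0.19 and 0.15. Repeated probes with signals under 100 varied between spots with a median SD of 0.14 (log2 ratio) on both arrays, so these ratios were about the size of the spread between spots.

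Ptger2 codes for the EP2 receptor, which like EP4 raises cyclic AMP. Its probe (chr14:45622004-45622063, mm9, plus strand) was not well above background in any sample, with signals between 2.49 and 3.05, and no ratio is given.

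Ptgfr codes for the receptor of prostaglandin F2 alpha and was near the limit of detection (chr3:151464323-151464382, mm9, minus strand). The signal was 16.6 in unstimulated and 3.57 in stimulated control cells, the latter not well above background. In THOC5-depleted cells it was 17.2 and 18.3. The other 3 signals were only just above the detection limits. Set against the detection limit of that channel (a signal of 14.0, the lowest still well above background), Ptgfr was at least 1.18-fold lower after serum in control cells (log2 -0.24). Repeated probes with signals under 100 on that array varied between spots with a median SD of 0.14 (log2 ratio). The more variable of them reached 0.24, the size of this bound. After normalization between the arrays, Ptgfr was at least 1.45-fold higher (log2 0.54) in stimulated THOC5-depleted than in stimulated control cells. Without the bound, the log2 difference was 2.51, and with normexp correction, which adds an offset of 50, it was 0.36. The unbounded difference thus depends on the background correction. In THOC5-depleted cells the log2 serum ratio was 0.08.

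Across the arrays, Ptgs2 and Ptger4 were higher in unstimulated and lower in stimulated THOC5-depleted cells than in control cells, in each case by less than 2-fold. Normalized between the arrays, Ptgs2 was 1.69-fold higher in unstimulated cells (log2 difference 0.76) and 1.57-fold lower after serum (-0.65). Ptger4 was 1.58-fold higher in unstimulated cells (0.66) and 1.21-fold lower after serum (-0.27). Both components, the higher starting level and the lower stimulated level, thus entered the smaller serum ratio of these genes. Their directions were the same under the 6 other scalings and settings, with ranges of 0.44 to 0.76 and -0.96 to -0.65 for Ptgs2 and of 0.43 to 0.73 and -0.50 to -0.22 for Ptger4. Not all of these settings could move the values. The mean over probes leaves both genes as they are, since each has a single probe. Keeping outlier spots does the same for Ptger4, whose probe was printed once. For the 413 serum-induced genes the medians were 0.28 in unstimulated and -0.59 in stimulated cells.

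In unstimulated cells, 0 of 7 genes differed 2-fold between the arrays, against a background of 4.3% of 19095 genes. In stimulated cells 0 of 7 were counted, against 4.73% of 18706 genes, but for Ptgfr, which was not well above background in stimulated control cells, a difference of 2-fold or more remains possible. Nothing can be said of Ptger2. Ptgs1 differed by 0.13 in unstimulated and 0.04 in stimulated cells, and Ptgis by -0.02 and -0.11. The downstream Ptges probe differed by 0.09 and 0.17, while the upstream probe was 1.61-fold higher in unstimulated THOC5-depleted cells (0.69) and differed by 0.31 after serum. Ptger1 differed by -0.23 and -0.27, and Ptgfr by 0.21 in unstimulated cells. Without scaling between the arrays, the median of all genes moved to -0.26 in unstimulated and -0.25 in stimulated cells. The small positive differences of Ptgs1 and of the downstream Ptges probe became negative under that setting (-0.21 and -0.24 in unstimulated cells), about as far as the median of all genes.

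The genes with the pattern most like that of each gene over the 4 samples were found by the distance between their log2 signals, each centred on the gene's mean, among 17230 genes. Nearest to Ptgs2 were Phlda1 (distance 0.23), Errfi1 (0.38), Rgs16 (0.47), Ereg (0.50) and Smad7 (0.51). Phlda1 was upregulated 12.6-fold in control and 4.34-fold in THOC5-depleted cells, and Rgs16 8.94-fold and 4.57-fold. Only 4 genes lay within a distance of 0.5 of Ptgs2. Nearest to Ptger4 were Apoe (0.036; 3.11-fold and 1.65-fold), D930050J11, Tex45, Slco4a1 and Ssh3, and 108 genes lay within 0.5. The patterns of Ptgs1, Ptges, Ptgis and Ptger1 were common ones, with 61.4% to 74.9% of genes within 0.5. Their nearest genes were Eno1b, Rap1a, Ybx1 and Appbp2, respectively.

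Of 32 other genes of prostanoid and leukotriene metabolism, 18 were well above background in all 4 samples, 1 in some and 13 in none. The undetected genes included Hpgds and Tbxas1, the synthases of prostaglandin D2 and thromboxane A2 in blood cells, Hpgd, which inactivates prostaglandins, the receptor genes Ptger3, Ptgdr and Ptgdr2, and the lipoxygenase genes Alox5 and Alox15. After serum, 1 of 18 genes was at least 2-fold higher in control cells and 0 were lower, and 0 of 19 changed 2-fold in THOC5-depleted cells. Of all genes, 2.64% were higher and 1.74% lower in control cells, and 1.32% changed in THOC5-depleted cells, so counts this small are near the background. The median log2 serum ratio of the list was -0.06 on both arrays.

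The gene that changed was Tbxa2r, which codes for the thromboxane receptor. Its signal was 34.1 before and 101 after serum in control cells and 48.2 and 90.6 in THOC5-depleted cells. Tbxa2r was upregulated 2.97-fold in control cells (log2 1.57) and stood at 0.91 in THOC5-depleted cells. With normexp background correction its log2 ratio in control cells was 0.99, just short of 2-fold. That correction adds an offset of 50 to the signals, which shrinks the ratios of dim probes.

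Between the arrays, 1 of 19 genes of the list was at least 2-fold higher in unstimulated and 2 of 19 in stimulated THOC5-depleted cells, and 0 were lower in either. Of all genes, 2.24% were higher in unstimulated and 2.46% in stimulated cells. Slco2a1 codes for the transporter that takes up prostaglandins from outside the cell. Its signal was 116 and 123 in control cells and 370 and 344 in THOC5-depleted cells. Slco2a1 was thus higher in both THOC5-depleted samples, with log2 differences of 1.89 and 1.70, and showed little difference with serum. Ptgir codes for the prostacyclin receptor and gave 127 and 81.6 in control cells and 155 and 145 in THOC5-depleted cells. Its lowest value was that of stimulated control cells, and it was higher in stimulated THOC5-depleted cells by 1.05 on the log2 scale and in unstimulated ones by 0.50. The value of 1.05 was 0.75 with normexp correction, which adds the same offset, and 0.83 without scaling. Either setting ends the 2-fold call.

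The 6 genes of the list with the brightest probes, which does not rank their RNA levels, were Ptges3 and Akr1b3, which act in the synthesis of prostaglandins E2 and F2 alpha, Ptgr1, which reduces prostaglandin metabolites, Lta4h, which makes leukotriene B4, and the phospholipase genes Pla2g4a and Pla2g4b. None of them changed 2-fold in any comparison. Pla2g4a, the cytosolic phospholipase that supplies the cyclooxygenases, gave 5104 and 4087 in control cells and 4710 and 4857 in THOC5-depleted cells. By group, the 5 detected terminal synthases had log2 serum ratios from -0.25 to -0.04 in control cells, and the 3 detected phospholipases from -0.32 to 0.31.

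**Figure D5:**
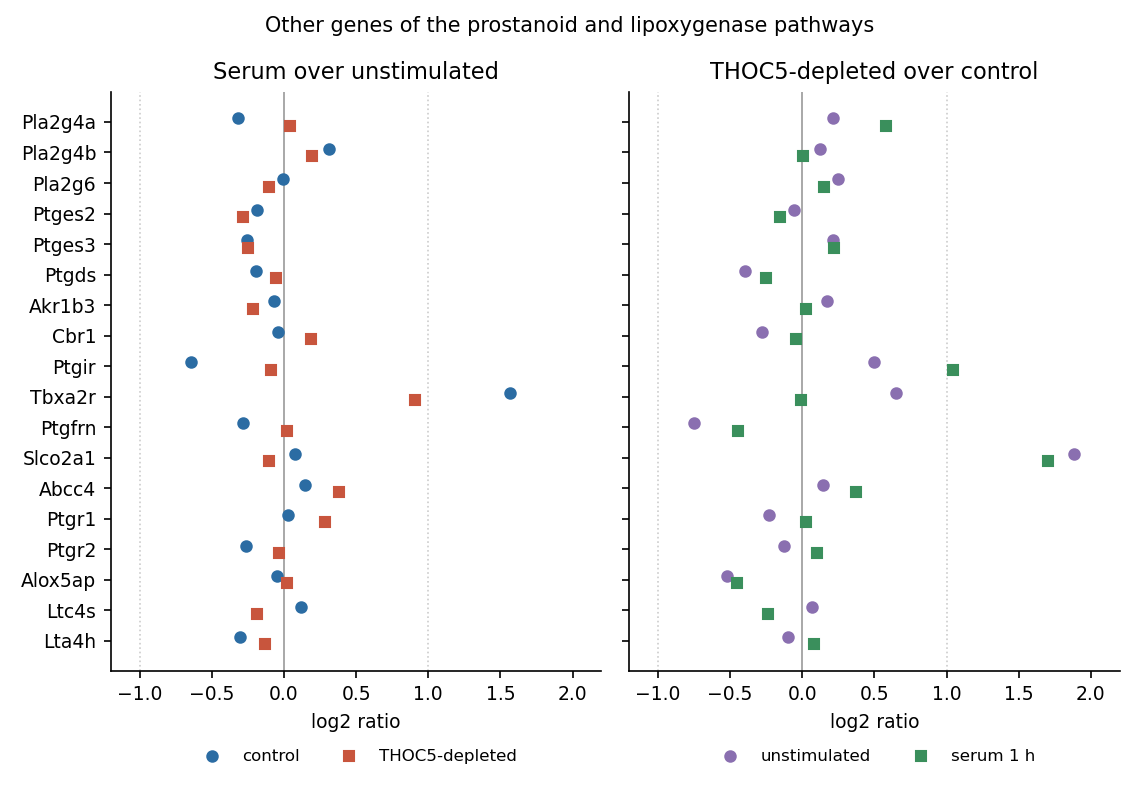
Log2 ratios of the 18 other pathway genes well above background in all 4 samples; the left panel gives serum over unstimulated signal in control (blue circles) and THOC5-depleted cells (red squares), the right panel THOC5-depleted over control signal in unstimulated (purple circles) and stimulated cells (green squares), and dotted lines mark 2-fold. Tbxa2r (1.57) lies beyond 2-fold on the left, and Slco2a1 (1.89 and 1.70) and Ptgir (1.05) on the right.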

How the data were processed

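Total RNA of mouse fibroblasts was measured on 2 two-color Agilent arrays. The authors deposited the scanner software's output (Agilent Feature Extraction 10.7.3.1; genome build mm9). The processed signals are, per the file headers, background-subtracted intensities with linear and LOWESS dye normalization within the array, not scaled between arrays. The authors' log10 ratio is Cy5 over Cy3. In the deposited table of log10 values for the series, 85.1% and 86.3% of features equalled the size of that ratio (within 1e-06), without its sign (0 negative values; medians 0.0279 and 0.0222); scaling and centring of the remainder were not examined.

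Spots marked as outliers were left out (239 and 234), spots of a probe were averaged as log2 values, and the brightest probe was used for a gene. Probes were named through their accession in RefSeq (26412 of 35777 with a symbol, and all 9 probes reported); 0 columns were not mapped. Arrays were normalized to each other with limma 3.58.1 (Aquantile; R 4.3.3, Python 3.11.15). A gene was counted when it differed 2-fold with at least 1 signal well above background; a dimmer signal was raised to the lowest such signal of its channel, which gives a bound. With 1 array per condition no test was made, and this number of arrays sets the precision. The scripts were tested on simulated data.

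Named genes are the 8 genes, Thoc5, pathway genes that differed 2-fold in any comparison, the 6 brightest of that list and the 5 nearest in pattern, of which the first is named for genes without a response; markers and undetected genes are named as examples. The genes and lists were chosen with earlier results of these data known. Alternatives were normexp correction (offset 50) with loess, no dye normalization, a floor of 50, the series table, outlier spots kept, the mean over probes, one spread of log ratios, a threshold of 1.5-fold, other detection rules and other scalings between arrays.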

Additional observations from a re-analysis of the deposited data

Results flagged for a closer look

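Among the other pathway genes named, Pla2g4a and Slco2a1 had log2 serum ratios of opposite sign in the 2 kinds of cells. The log2 ratio of Pla2g4a was -0.32 in control and 0.0442 in THOC5-depleted cells. That of Slco2a1 was 0.0784 in control and -0.11 in THOC5-depleted cells. All 4 ratios were short of 2-fold, each rests on 1 array, and the difference between the arrays was not tested.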

How the results depend on the processing

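With 1 array per condition, no replicate could be left out, and no p-value was available to change. No paired analysis was possible because there was 1 array per condition. The log2 serum ratio of Ptgs2 in control cells (3.79) was 3.85 without dye normalization and 3.22 with log ratios scaled to one spread; in THOC5-depleted cells (2.38) it was 2.42 and 2.89. Their difference of -1.41 became -0.34 with one spread, which follows from dividing each array by its own spread. At -0.34 the difference is short of 2-fold, so the 2-fold call of Ptgs2 between the arrays does not hold under that setting. At a threshold of 1.5-fold, the count of genes with a serum change in THOC5-depleted cells was 2 in place of 1, and the counts that differed between the arrays were 2 in unstimulated and 1 in stimulated cells in place of 0. Without a detection filter, 1 gene differed between stimulated cells. Without that filter, 3 genes in place of 2 changed 2-fold after serum in control cells. In both counts the added gene was Ptgfr, whose signal in stimulated control cells was not well above background. The shares of all genes at 1.5-fold and without the filter are not given here, so these counts cannot be set against a background. Under the remaining alternatives, the serum ratios of Ptgs2 and their difference moved by less than the spread between spots and the counts were unchanged. Some of these could not move Ptgs2. Its signals lie above the floor of 50, it has a single probe, and the series table holds the same ratio. Without scaling between the arrays, the Ptgs2 differences between THOC5-depleted and control cells were 0.44 in unstimulated (0.76) and -0.96 in stimulated cells (-0.65). Of 237 such comparisons of single genes, 74 moved by more than the spread between spots, and no value called at 2-fold changed its sign. The signals of Ptger1, Ptger2 and Ptgfr lay near background and limit what can be read from their ratios.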
